A study of Mus musculus with 12 samples.

Results

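Hearts of mice lacking apelin were compared with wild-type hearts in the absence of pressure overload, to ask how the resting heart differs when this peptide is missing. The comparison covers 6 of the 12 arrays of the study, 3 knockout sham and 3 wild-type sham, taken by their labelled genotype and operation, and all 34945 probe sets that the platform annotation assigns to 1 gene. The other 6 arrays, 3 knockout banded and 3 wild-type banded, come from hearts whose aorta was narrowed by banding. They give a second comparison of the same genotypes, whose differences share no array with the sham ones. The standard errors and p-values of both come from 1 model fitted to all 12 arrays, so the p-values are not independent. Each array was made from total RNA of heart, and the labels call the replicates biological. The sources used here give no age, strain, knockout allele, part of the heart or time after surgery.

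Apelin, encoded by Apln, is a secreted peptide made largely by endothelial cells. It acts through a G protein-coupled receptor encoded by Aplnr, which is found on endothelium, cardiomyocytes and smooth muscle, and in the heart it is known for raising contractile force, widening vessels and opposing the renin-angiotensin system. A second peptide ligand of the same receptor is encoded by Apela.

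The sham arrays were alike in distribution. Their medians ran from 42.3 to 50.4 intensity units and 25.8 to 29.7% of probe sets lay below 16. The correlation of log2 values was 0.979 to 0.981 between knockout sham arrays, 0.971 to 0.977 between wild-type sham arrays and 0.973 to 0.98 across genotypes, given as a description over probe sets. Wild-type sham 3 stood apart, with the highest maximum of the 6 (21832, against 10231 to 14746) and a limma array weight of 0.62. The 3' to 5' ratio of the Actb control probe sets, a sign of RNA integrity, averaged 0.15 in knockout sham and 0.09 in wild-type sham on the log2 scale, and that of Gapdh averaged -0.36 and -0.37. Xist, the RNA of the inactive X chromosome, was 52.5 to 80.2 in the 6 sham arrays and Y-linked Eif2s3y was 270 to 340, and the ranges of the sham groups overlapped for both. In the array labelled wild-type banded 3, Xist was 1255 and Eif2s3y 0.468, so by both genes it read as the other sex from the sham arrays. The part of sex in the banded differences was not tested. The defining cardiomyocyte mRNAs were at the top of the range in all 6 sham arrays, with Myh6 at 9719 to 19471.

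Apln itself was lower in every knockout sham array. Its intensity was 63.7, 111 and 85.4 in knockout sham arrays 1, 2 and 3, and 333, 323 and 212 in wild-type sham arrays 1, 2 and 3. The groups did not overlap, and their means were 86.7 ± 23.8 and 290 ± 67.0 (SD, n = 3 each), a ratio of 3.34 in favour of wild type. All differences are given as knockout minus wild type on a log2 scale with 16 added to each intensity, and on it Apln differed by -1.57 with a standard error (SE) of 0.26, and it did not pass the threshold over all probe sets (limma, adjusted p = 0.407). An exact two-sided permutation test gave p = 0.1, the smallest value that 3 arrays against 3 can give. Apln is measured by 1 probe set, and the position of its probes relative to the deleted part is unknown here. In banded hearts the same probe set read 271, 123 and 160 in the knockout arrays and 205, 223 and 255 in the wild-type arrays, so the array labelled knockout banded 1 had the highest value of the 6 and went against its label. The banded difference was -0.34, and -0.63 without that array. The interaction, which is the banded difference minus the sham difference, did not pass for Apln (limma, adjusted p = 0.561).

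Across all single-gene probe sets, few reached the threshold used. With limma fitted to all 12 arrays and Benjamini-Hochberg adjustment over 34945 probe sets, 1 probe set passed at 0.05 (0.00286%), a probe set of Prune2 that rose in the knockout. At an unadjusted p under 0.05 there were 1875 probe sets (5.37%), of which 713 were higher in the knockout (2.04%) and 1162 lower (3.33%). This split depended on scaling, since higher probe sets made up 38% of them as deposited, 50.2% after quantile normalization and 66.5% after median scaling. The median difference over all probe sets was -0.02, with 5% and 95% points of -0.41 and 0.33, and 83 probe sets differed by more than 1 in either direction. Simulated data of the same layout had 100 probe sets changed 2-fold and 100 changed 4-fold. Of these, 58.3 and 95.7 of 100 were recovered in this comparison. The Benjamini-Hochberg cut-off loosens as more probe sets pass. In the measured data 1 passed, so these rates can overstate what could be detected. The plot of all probe sets by difference and p shows Prune2 apart from the rest and 9 further named probe sets at the upper edge of the cloud.

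**Figure D1:**
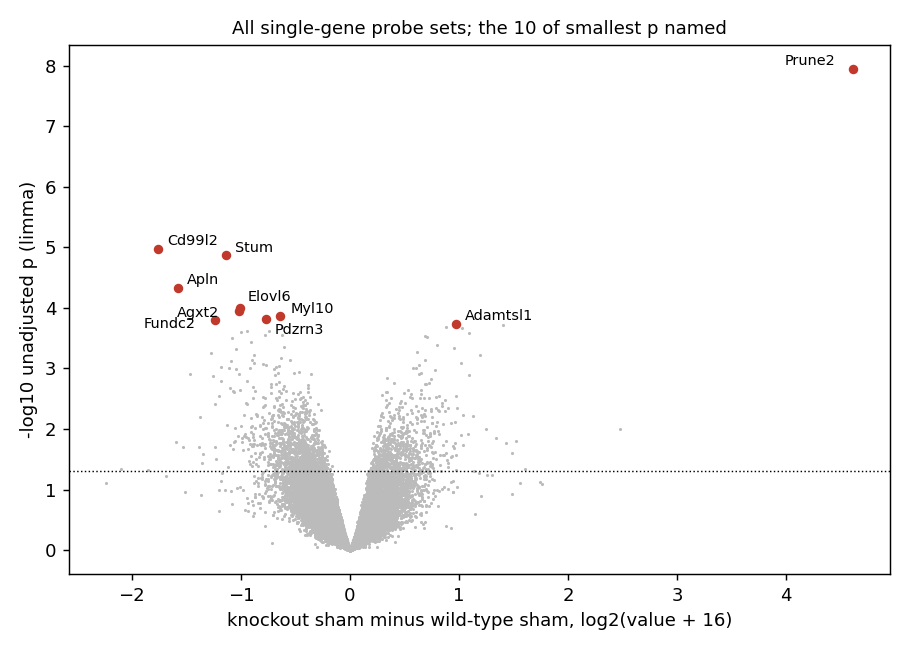
Each point is 1 of 34945 single-gene probe sets, with the knockout sham minus wild-type sham difference in log2(value + 16) on the x axis and -log10 of the unadjusted limma p on the y axis; the dotted line marks an unadjusted p of 0.05. The 10 probe sets of smallest p are named in red, and Prune2, at a difference of 4.61, was the 1 that passed after adjustment.

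Prune2 encodes a large protein with a BCH domain that is best known from nervous tissue. Its probe set 1432198_at read 1573, 2337 and 1178 in knockout sham arrays, and 79.6, 75.1 and 19.0 in wild-type sham arrays. Every knockout sham array was far above every wild-type one, with means of 1700 ± 589 and 57.9 ± 33.7 (SD, n = 3 each). The rise was 4.61 on the log2 scale (SE 0.34, limma adjusted p = 0.000394). It was not seen at this size in banded hearts, where knockout arrays read 95.1, 98.3 and 99.5 and wild-type arrays 82.3, 47.9 and 56.4, a difference of 0.56 (SE 0.34). The interaction for this probe set was -4.05 (SE 0.49, limma adjusted p = 0.0765), and -4.03 without the array labelled knockout banded 1 (adjusted p = 0.0139). The call was lost when only the 6 sham arrays were fitted (adjusted p = 0.0824).

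The other Prune2 probe sets did not follow. The brightest of them, 1455342_at, read 1504, 607 and 1007 in knockout sham and 1697, 1227 and 1355 in wild-type sham, a difference of -0.53. The remaining 2 differed by 0.18 (1430757_at) and -0.22 (1439274_at). The high reading in knockout sham hearts therefore belongs to 1 of 4 probe sets of this gene, and which transcript that probe set detects was not tested. Myl7, an atrial myosin light chain, was 3.44 in knockout sham 1, where Prune2 1432198_at was 1573. It was 3549 and 6103 in knockout sham 2 and 3, where Prune2 1432198_at was 2337 and 1178. The part of atrial tissue in the Prune2 reading was not tested.

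**Figure D2:**
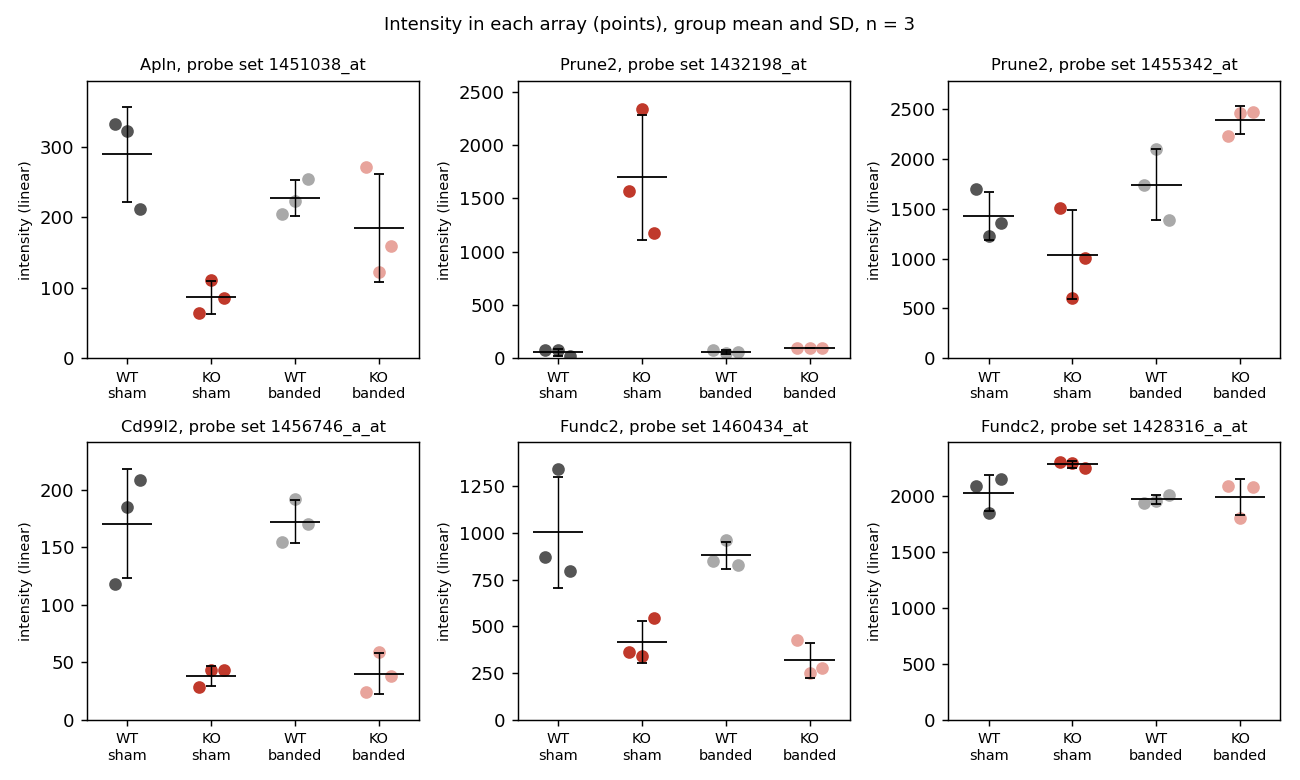
Linear intensity of 6 probe sets of Apln, Prune2, Cd99l2 and Fundc2 in each array (points), with the group mean (line) and SD (bars), n = 3 in each of the wild-type (WT) and knockout (KO) sham and banded groups. Apln was below wild type in the 3 knockout sham arrays, Prune2 1432198_at was high in knockout sham hearts alone among the 4 groups, and Cd99l2 and Fundc2 were low in the knockout arrays of both operations, except for the Fundc2 probe set 1428316_a_at.

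After Prune2, the smallest p belonged to Cd99l2, which encodes a membrane glycoprotein of endothelial junctions and leukocytes that takes part in leukocyte passage through the vessel wall. Its probe set 1456746_a_at read 28.4, 43.3 and 43.4 in knockout sham and 118, 185 and 209 in wild-type sham. The groups did not overlap, and the difference of -1.76 (SE 0.25) missed the threshold (limma, adjusted p = 0.158). The banded arrays, which do not enter the sham difference, gave nearly the same difference of -1.79. Their values were 23.9, 58.8 and 37.7 in the knockout and 155, 192 and 170 in wild type, again without overlap. The array labelled knockout banded 1 was thus at the knockout level for Cd99l2 and above wild type for Apln, and wild-type banded 3 lay between the other wild-type banded arrays.

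Cd99l2 has 4 single-gene probe sets, and they did not move together. The probe set 1456747_x_at differed by -1.09 in sham and -1.3 in banded hearts. The other pair read brighter, with smaller differences in sham hearts of 0.25 for 1423965_at and -0.39 for 1423966_at. In Affymetrix names the suffix _a marks probes shared by several transcripts of 1 gene, and _x marks probes that may also bind other transcripts.

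Fundc2, which encodes a FUN14-domain protein of the mitochondrial outer membrane, also differed in both operations. Its probe set 1460434_at read 364, 339 and 544 in knockout sham and 872, 1345 and 796 in wild-type sham, with no overlap. The difference was -1.23 (SE 0.23, limma adjusted p = 0.473) in sham hearts. In banded hearts it was -1.45, from 425, 252 and 278 in the knockout and 849, 960 and 830 in wild type. A dimmer probe set, 1428317_at, differed by -0.88 in sham and -0.50 in banded hearts. The brightest one, 1428316_a_at, read 2304, 2302 and 2249 in knockout sham and 2089, 1847 and 2151 in wild-type sham, a difference of 0.17 in the other direction, without overlap.

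Apln, Cd99l2 and Fundc2 all lie on the X chromosome, the chromosome of the targeted gene. Thus 3 of the 10 probe sets of smallest p were on it, and 1 of these 3 is Apln itself. Of the 34741 single-gene probe sets with a RefSeq chromosome, 3.24% were on it. The 10 were picked by p from these data, and a link with the X chromosome was not tested. In RefSeq order Cd99l2 is 349 genes and Fundc2 507 genes from Apln. Among all probe sets with an unadjusted p under 0.05, 3.6% were on the X chromosome.

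Of the remaining 6 probe sets among the 10 of smallest p, 5 were lower in knockout sham hearts and 1 higher, and none passed (limma, adjusted p = 0.158 for Stum and 0.473 for the others). Most were dim. Stum, named for a fly gene of mechanosensory neurons, was 12, 9.5 and 5.73 in the knockout and 38.5, 31.3 and 48.3 in wild type. Agxt2, a mitochondrial aminotransferase, was 3.26, 2.92 and 2.12 against 15.4, 28.6 and 23.4. Both genes were without overlap between the groups, and both lay near the added constant of 16, where a log2 difference understates a ratio. Myl10, a myosin light chain, differed by -0.64 and the probe set 1442656_at of Elovl6, a fatty acid elongase, by -1.01. The only bright one was 1416846_a_at of Pdzrn3, a ubiquitin ligase with PDZ domains, at 232, 275 and 233 in the knockout and 403, 535 and 369 in wild type, a difference of -0.77 (SE 0.14). Adamtsl1, a matrix protein related to the ADAMTS proteases, was higher in the knockout at 16.4, 18.7 and 20.2 against 1.28, 1.72 and 1.72. Other probe sets of Elovl6, Adamtsl1 and Pdzrn3 differed by -0.24 to 0.16. In banded hearts these 6 differed by -0.06 to 0.25, and none of the 10 passed the interaction test.

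**Figure D3:**
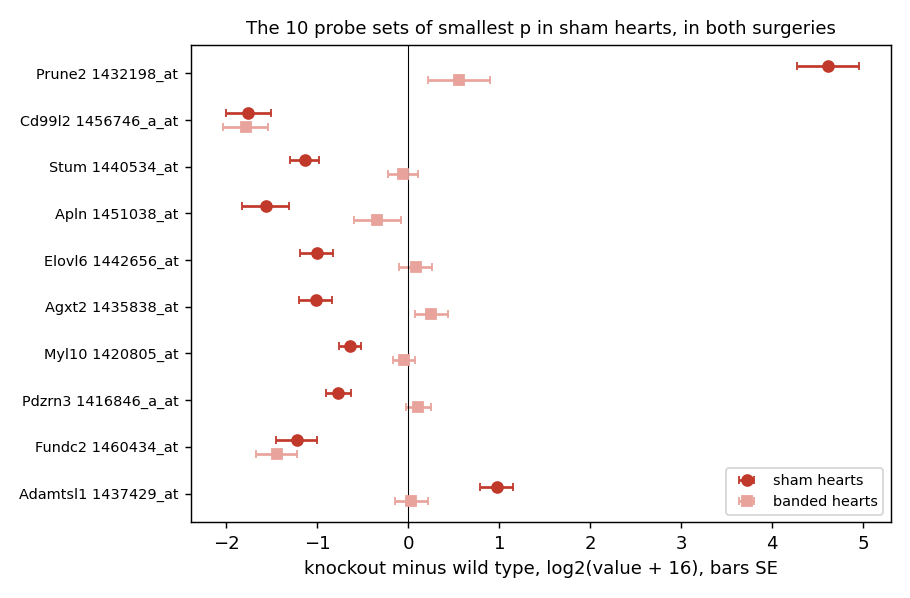
Knockout minus wild-type difference in log2(value + 16), with SE bars from the limma fit, for the 10 probe sets of smallest p in sham hearts (circles) and the same probe sets in banded hearts (squares). Cd99l2 and Fundc2 had differences of -1.76 and -1.23 in sham and -1.79 and -1.45 in banded hearts, while Prune2 went from 4.61 to 0.56.

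Over the whole table, the sign of the sham difference carried little into the banded hearts. Of the 1875 probe sets with an unadjusted p under 0.05 in sham hearts, 960 had the same sign in banded hearts (51.2%), against 51.4% of all probe sets. No probe set passed in the banded comparison (limma, 0%; 3691 at an unadjusted p under 0.05, 10.6%), and none passed for the interaction (limma, 0%; 2582, 7.39%). Without the array labelled knockout banded 1 these counts were 777 and 169. In both operations 12 probe sets had non-overlapping arrays, the same direction and an unadjusted p under 0.01 in each. Probe sets of opposite direction were not counted under that p limit, so the 12 have no like count beside them. With no p limit, 311 had non-overlapping arrays in the same direction and 222 in opposite directions. Non-overlapping arrays were found for 3.94% of probe sets upward and 6.29% downward in sham hearts, and for 6.77% upward and 8.81% downward in banded hearts.

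Those 12 were picked after their values were seen, by sham and banded p-values that share a variance estimate. They included both Cd99l2 probe sets and Fundc2 1460434_at. Rgs5, a regulator of G protein signalling that marks pericytes, had a probe set, 1420940_x_at, that read 343, 153 and 359 in knockout sham and 454, 703 and 897 in wild-type sham. The difference was -1.25 in sham and -2.44 in banded hearts, where the knockout arrays were at 79.0, 95.1 and 89.7. The other Rgs5 probe sets, which were brighter, differed by -0.14 to -0.49 in sham hearts. Slc66a1, a lysosomal exporter of cationic amino acids, was higher in the knockout at 48.4, 50.2 and 60 against 16.3, 17.0 and 15.6, a difference of 1.09 in sham and 0.84 in banded hearts. Slc7a5, a transporter of large neutral amino acids at the cell surface, differed by 0.90 and 0.87. The probe set 1425829_a_at of Steap4, a metalloreductase, differed by -0.55 and -0.49, while the brighter 1460197_a_at differed by -0.44 and -0.19 with overlapping arrays. Kmt5a, a histone methyltransferase, differed by 0.34 and 0.33 at 1426406_at, while its brightest probe set, 1460687_at, differed by 0.11 and 0.13 with overlapping arrays. Lrp11 (0.79 and 1.05), Alcam (-0.61 and -0.49 at 1437466_at), Fam160b1 (-0.33 and -0.36 at 1423876_at) and Defa39 (-0.88 and -0.93) complete the group. In the banded comparison without the array labelled knockout banded 1, 777 probe sets passed. They included the first Cd99l2 probe set (limma, adjusted p = 0.00867), the second (0.0401), Fundc2 1460434_at (0.00455) and Rgs5 1420940_x_at (0.00723). The 12 were picked partly by their banded p, so this is not a separate test of them.

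Genes were then described by pathway, each gene by its brightest single-gene probe set, 18193 genes in all. None of the 18 pathway lists or 17 marker lists held a member that passed after adjustment (limma), so lists are given as counts at an unadjusted p under 0.05 and medians. Among all genes, 1000 were under 0.05 (5.5%), 423 higher (2.33%) and 577 lower (3.17%), the median difference was -0.01, and 53.5% were below 0. The plot of list members shows most lists centred near 0, with the immediate-early genes shifted down and the clock genes spread to both sides.

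**Figure D4:**
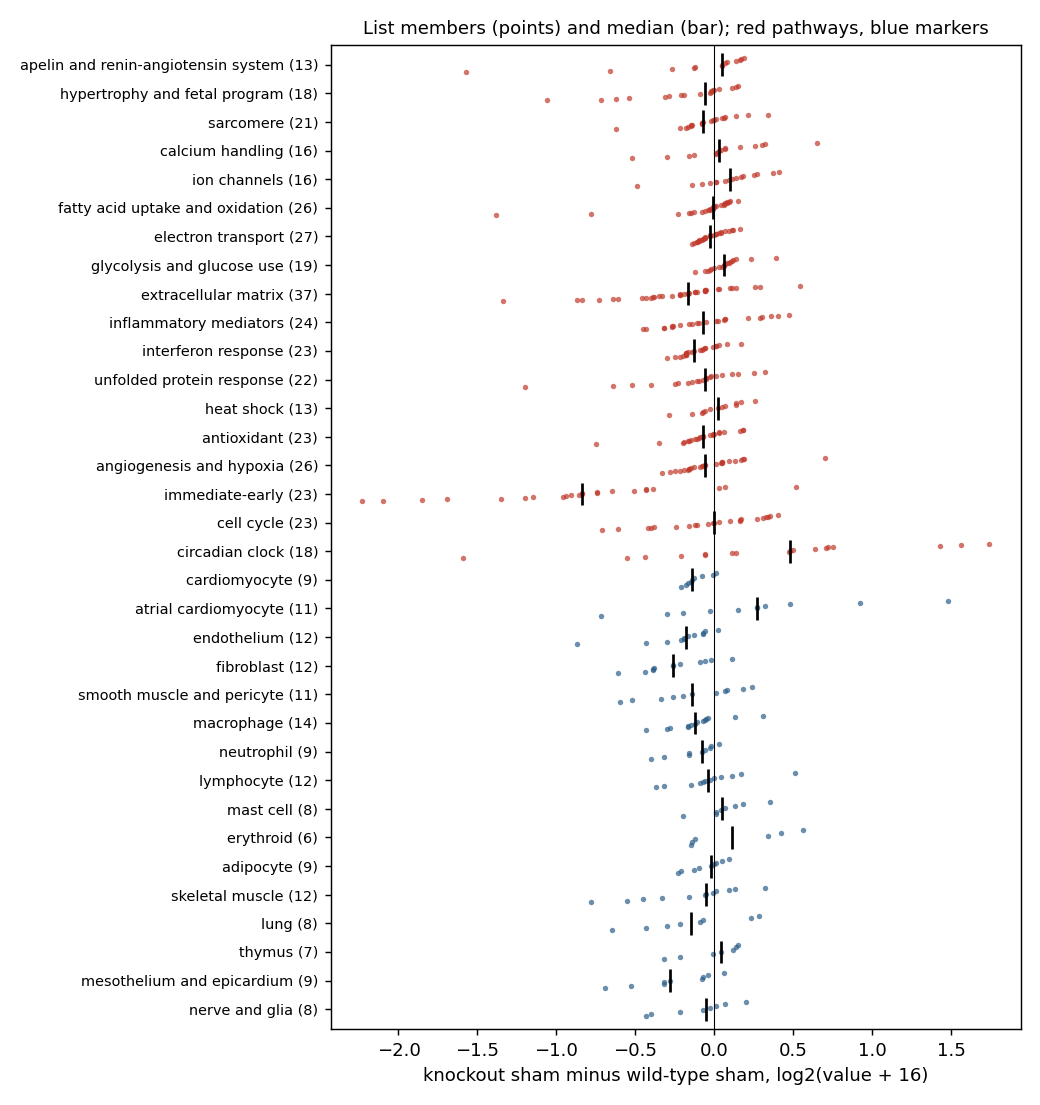
Knockout sham minus wild-type sham difference in log2(value + 16) for the members of each list (points), with the list median as a black bar and the number of measured members in brackets; pathway lists are red and marker lists blue. Immediate-early genes had a median of -0.84, circadian clock genes a median of 0.48 and electron transport genes lay between -0.14 and 0.16.

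In the apelin and renin-angiotensin list, 13 members were measured, and 2 of them, Apln and Agtr1b, were lower at an unadjusted p under 0.05. The apelin receptor gene Aplnr was 829, 532 and 1012 in knockout sham and 2031, 707 and 393 in wild-type sham. Its groups overlapped widely, with a difference of -0.12 (SE 0.48) that turned to 0.52 without wild-type sham 1, and its dimmer probe set differed by -0.19. Apela was near the floor of the array in all sham arrays, at 1.73 to 15.7. Ace, which makes angiotensin II, differed by 0.07 and the main angiotensin receptor Agtr1a by -0.13. The second angiotensin receptor gene of rodents, Agtr1b, was dim in all sham arrays, at 3.39 to 36.7.

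The immediate-early genes, which are transcribed within minutes of a stimulus, were mostly at lower values in knockout sham hearts, though none passed after adjustment. Of 23 members 20 were below 0 and 8 were under 0.05, all 8 lower, and 6 had non-overlapping arrays (5.9% of all genes did in that direction). The same 20 to 3 split was found after quantile normalization and after median scaling. The 8 lower under 0.05 became 5 after quantile normalization and 7 after median scaling. Their number was 3, 2 and 2 without knockout sham 1, 2 and 3. Egr1, a zinc finger transcription factor, was 403, 210 and 201 in knockout sham and 220, 1690 and 4037 in wild-type sham, a difference of -2.10 (SE 0.94). Fos, a subunit of AP-1, was 108, 70.5 and 38.8 against 40.6, 631 and 1644. The wild-type arrays thus spread over a wide range, with wild-type sham 1 at the knockout level and wild-type sham 3 highest. Klf4, a Krüppel-like factor of vessels, was tighter at 356, 454 and 390 against 501, 672 and 763, a difference of -0.65 (SE 0.17), with -0.21 for its other probe set. Jun, the partner of Fos, read 437, 396 and 428 against 471, 593 and 1663, and its 2 groups did not overlap.

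Wild-type sham 3 set much of this shift. The mean log2 level of the list was 7.46, 7.36 and 7.14 in knockout sham arrays and 7.25, 8.08 and 9.26 in wild-type sham arrays. Without wild-type sham 3 the median over the 23 genes was -0.29, with 18 below 0, and 1 was lower and 1 higher under 0.05. Without wild-type sham 1 the median was -1.22, with 15 lower under 0.05. The same array had the highest cardiomyocyte mRNAs: the mean of that marker list was 13.89 there and 13.00 to 13.39 in the other sham arrays. The part of that array's state in the difference was not tested. In banded hearts the list's median difference was -0.52.

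**Figure D5:**
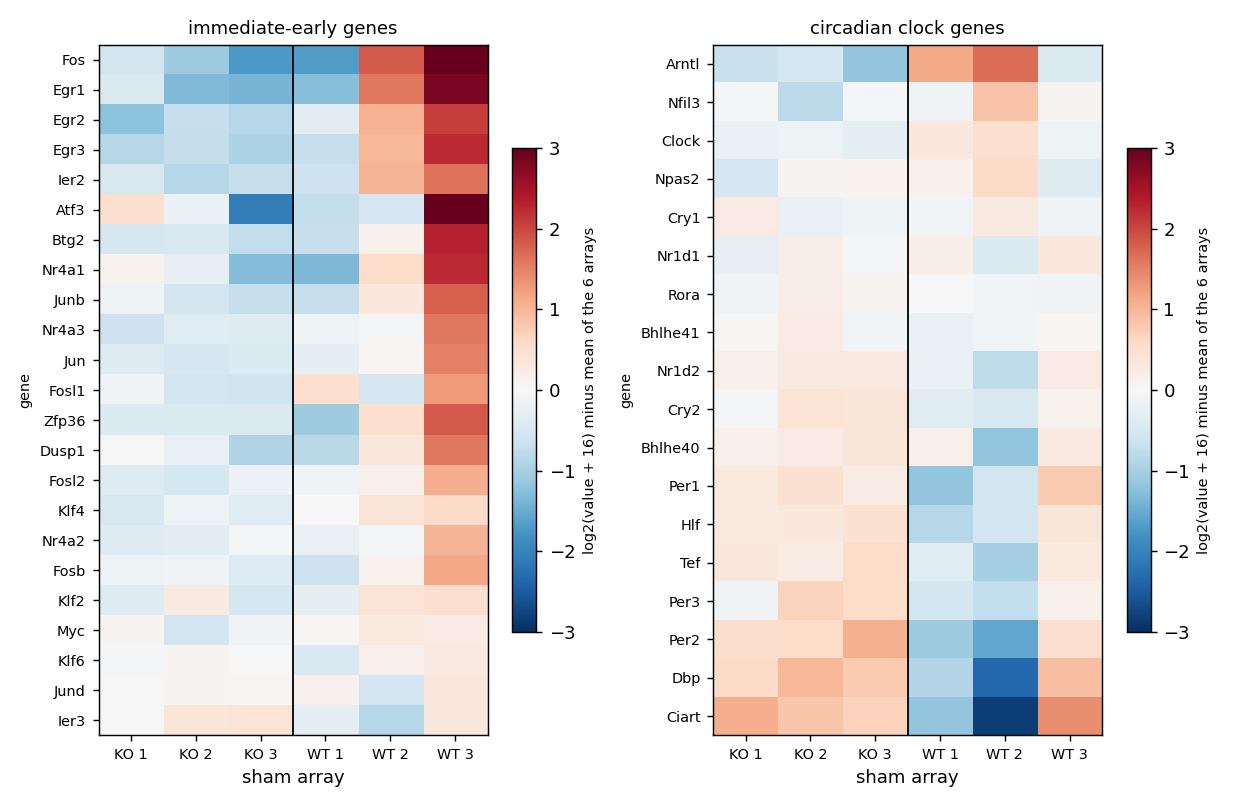
Heat maps of the 23 immediate-early genes (left) and 18 circadian clock genes (right) in the 6 sham arrays, as log2(value + 16) minus each gene's mean over those arrays, capped at 3 in either direction. Immediate-early genes were highest in wild-type sham 3, and for clock genes wild-type sham 1 and 2 stood apart from the knockout arrays while wild-type sham 3 looked like them for genes such as Dbp and Ciart.

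Clock genes form a loop in which the proteins of Arntl and Clock bind E-boxes, the sequence CACGTG, and switch on Per, Cry and output genes such as Dbp, Tef and Ciart, whose products feed back on the loop; their mRNAs cycle over the day in heart. A window of 250 bases before a RefSeq start (build GRCm38.p6) is shown for each of 3 such genes, with each E-box in capitals. Among clock genes with an E-box in a window, these 3 lay furthest above 0 in knockout sham hearts. The strand printed is that of the gene.
Ciart, chr3:95882229-95882478, minus strand: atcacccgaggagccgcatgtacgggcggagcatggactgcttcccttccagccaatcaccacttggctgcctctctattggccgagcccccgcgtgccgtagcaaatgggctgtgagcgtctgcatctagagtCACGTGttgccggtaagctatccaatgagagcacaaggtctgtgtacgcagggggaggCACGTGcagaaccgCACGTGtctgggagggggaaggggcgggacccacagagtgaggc
Per1, chr11:69098699-69098948, plus strand: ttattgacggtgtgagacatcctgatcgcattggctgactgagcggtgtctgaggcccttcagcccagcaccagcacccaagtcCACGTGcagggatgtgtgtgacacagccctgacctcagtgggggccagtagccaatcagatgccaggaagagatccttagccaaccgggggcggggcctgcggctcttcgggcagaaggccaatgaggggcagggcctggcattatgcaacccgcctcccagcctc
Tef, chr15:81811164-81811413, plus strand: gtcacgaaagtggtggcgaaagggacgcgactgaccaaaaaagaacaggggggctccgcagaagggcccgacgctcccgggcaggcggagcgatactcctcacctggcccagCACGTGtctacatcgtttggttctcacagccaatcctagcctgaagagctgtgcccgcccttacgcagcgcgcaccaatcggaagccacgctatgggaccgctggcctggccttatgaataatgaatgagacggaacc
The Ciart window holds 3 E-boxes, which begin 116, 58 and 44 bases before the start. The one of Per1 begins 166 bases before it and that in the Tef window shown 138. The window of another Tef start, chr15:81802423-81802672, also holds 1 E-box, which begins 127 bases before that start. An E-box, which reads the same on both strands, was found in a window of 5 of 16 clock genes with windows (31.2%), Bhlhe41 and Cry1 being the others, against 6.86% of the 27025 genes in the table, and in 28.6% of 21 clock windows against 6.02% of all 32851 windows. In sham hearts Ciart, Tef, Per1, Bhlhe41 and Cry1 differed by 1.74, 0.72, 0.64, 0.14 and -0.06. No E-box was found in a window of Dbp, Per2, Per3 or Hlf, which differed by 1.56, 1.43, 0.75 and 0.71. None was found for Arntl or Clock either, at -1.59 and -0.44. A match is a description of letters, not a measured binding site, and a link between E-boxes and the differences was not tested.

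No member of the clock list passed the adjusted threshold in sham hearts. Arntl (1425099_a_at) read 42.2, 48.4 and 24.8 in the knockout and 187, 282 and 53.5 in wild type, a difference of -1.59 (SE 0.57). Its second probe set, 1457740_at, differed by -0.01. Clock was 176, 181 and 163 against 260, 289 and 183, a difference of -0.44, and its 4 probe sets ranged from -0.52 to -0.30. These groups did not overlap for the first Arntl probe set or for the brightest of Clock.

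Among the targets, Per2, a repressor of the loop, was 188, 191 and 280 in the knockout and 51.1, 32.1 and 183 in wild type. Its difference was 1.43 (SE 0.52), and its 3 probe sets ranged from 0.54 to 1.43. Dbp, an output transcription factor, was 1073, 1444 and 1253 against 386, 128 and 1355, and Ciart, a repressor of Arntl and Clock, was 410, 341 and 310 against 73.2, 12.4 and 511. Wild-type sham 3 was within the knockout range for Dbp at this probe set (1438211_s_at) and above it for Ciart, and the other wild-type arrays were far below. The second Dbp probe set, 1418174_at, read 1187, 1339 and 1455 against 544, 122 and 1079, without overlap (1.61, SE 0.72). Tef differed by 0.72, Per3 by 0.75 (its 6 probe sets ran from -0.15 to 1.25), Hlf by 0.71 and Per1 by 0.64, each with overlapping groups, and Nr1d1 and Cry1 by -0.06 each.

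Of the 18 members of the clock list 12 were above 0 (46.5% of all genes were), and 1 was higher and 2 lower under 0.05. The arrays did not overlap for 1 member with the knockout higher (4.62% of all genes) and for 2 with it lower (5.9%). The higher count was 4 with median scaling, 6 with only the 6 sham arrays fitted or with array weights, and 8 without the array labelled knockout banded 1. The list's median was 0.48 (0.48 after quantile normalization, 0.54 after median scaling). Leaving out wild-type sham 3 gave a median of 0.68 with 9 higher and 2 lower, and leaving out wild-type sham 2 gave 0.18 with 0 higher and 0 lower at an unadjusted p under 0.05. In banded hearts the median was -0.24. The sources used here give no hour of collection, and its part was not tested.

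Several marker lists of cell types had most members below 0, beside 53.5% of all genes. Cardiomyocyte markers had 8 of 9 below 0 and a median of -0.14, with 6 below after quantile normalization and 7 after median scaling. Without wild-type sham 3 that median was 0.12 and 0 were below 0. Of 12 endothelial markers 11 were below 0, with a median of -0.18, and 3 were under 0.05 and lower; 11 were below 0 after quantile normalization and 10 after median scaling. Cldn5, a tight junction protein of endothelium, was 162, 140 and 132 in knockout sham and 222, 260 and 370 in wild-type sham, a difference of -0.87 (SE 0.23). Pecam1, an adhesion protein of endothelial junctions, was 397, 397 and 373 against 597, 497 and 500. Both genes were without overlap, whereas Kdr (-0.06) and Vwf (0.02), which also define endothelium, lay near 0. Without wild-type sham 1 the endothelial median was -0.06. In whole-heart RNA, fewer cells of a type and less RNA per cell cannot be told apart.

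Of 12 fibroblast markers 11 were below 0 (10 after median scaling), with a median of -0.26. Without knockout sham 1, 8 were below 0 and 4 above, with a median of -0.15. Ddr2, a collagen receptor, was 128, 155 and 173 in knockout sham and 198, 211 and 224 in wild-type sham. Its difference was -0.44 (SE 0.13), and Pdgfrb, a growth factor receptor of mural cells, differed by -0.26. Col3a1 read 1035, 1179 and 1241 against 2036, 1478 and 1819, without overlap (-0.61, SE 0.30). Among 11 smooth muscle and pericyte markers 6 were below 0 and 5 above, with a median of -0.14. Myh11, Tagln and Rgs5 were under 0.05 and lower, and 1 member was with median scaling, with only the 6 sham arrays fitted or without wild-type sham 1. Acta2, the defining smooth muscle actin, differed by 0.08.

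The extracellular matrix list, which shares Col1a1, Col1a2, Col3a1, Dcn and Lum with the fibroblast list, had 29 of 37 members below 0 and a median of -0.17 (-0.15 after quantile normalization, -0.11 after median scaling). Without wild-type sham 1 the median was -0.11, with 22 members below 0 and 15 above, and without wild-type sham 2 it was -0.33. Under 0.05, 2 were lower and 1 higher, but 10 were lower and 0 higher when only the 6 sham arrays were fitted, and 10 lower and 1 higher without the array labelled knockout banded 1. The arrays of 10 members did not overlap, all with the knockout lower (5.9% of all genes). Thbs1, a matricellular protein, was 36.0, 42.6 and 30.1 in knockout sham and 64.9, 107 and 215 in wild-type sham, a difference of -1.34. Its other probe set, 1450377_at, differed by -0.69 with overlapping groups. Mmp14, a membrane-bound matrix protease, was 111, 93.9 and 142 against 208, 215 and 143. Timp3, a protease inhibitor, was the one higher, with a difference of 0.54 and overlapping groups. The banded arrays went the other way, with a median of 0.48 for this list and, for example, 1.86 for Postn, which differed by -0.22 in sham hearts. The mean log2 level of the list was 8.76, 10.19 and 9.88 in knockout banded arrays and 9.02 to 9.06 in wild-type banded ones, and Postn was 639, 4719 and 3978 against 609 to 634. The array labelled knockout banded 1 thus stood apart from the other knockout banded arrays.

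The hypertrophy and fetal program, which is re-expressed in the loaded ventricle, had members on both sides of 0 at rest. Of 18 members 1, the skeletal myosin-binding protein gene Mybpc2, was under 0.05 and lower, and the median was -0.06 (0.49 in banded hearts). It was -0.42 without wild-type sham 2 and 0.07 without wild-type sham 1. The natriuretic peptide gene Nppa was 5899, 7347 and 8848 in knockout sham and 8426, 2345 and 14051 in wild-type sham. Nppb was 4240, 1298 and 3159 against 6874, 2060 and 2351. Both spread far more within a group than between them, with differences of 0.15 (SE 0.49) and -0.31 (SE 0.46). Myh7, the slow myosin heavy chain, was 1132, 1656 and 1128 against 5182, 1109 and 1361, so that its difference of -0.62 became 0.06 without wild-type sham 1. Acta1, skeletal actin, differed by -0.01 as deposited and 0.05 after median scaling.

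Atrial mRNAs varied widely within each genotype. The mean log2 level of 11 atrial markers was 6.61, 9.38 and 9.81 in knockout sham arrays and 7.78, 7.88 and 9.42 in wild-type sham arrays. Myl7 was 443, 689 and 5785 in wild-type sham, beside the knockout values given above. No atrial marker was under 0.05, and the values of Nppa, which is also an atrial gene, carry this spread.

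Contractile, calcium and ion channel lists had medians between -0.07 and 0.10. In the sarcomere list 0 of 21 members were under 0.05 and the smallest p belonged to Mylk4 (0.34), a myosin light chain kinase, and Nebl (0.21), a Z-disc protein. In banded hearts Mylk4 differed by -1.08 and Nebl by 0.06. Myh6, the main myosin heavy chain of the adult mouse ventricle, differed by -0.15 (SE 0.22) and by 0.12 without wild-type sham 3. Calcium handling had a median of 0.03 with 2 of 16 members higher under 0.05. Cacnb2, a calcium channel subunit, was 1049, 939 and 1007 in knockout sham and 764, 833 and 831 in wild-type sham, without overlap (0.30, SE 0.08). It differed by -0.23 in banded hearts, and its other probe set, 1452476_at, by 0.25 in sham and -0.39 in banded hearts. Slc8a1, the sodium-calcium exchanger, differed by 0.65 at its brightest probe set and by -0.02 to 0.21 at its other 3. Atp2a2, the calcium pump of the sarcoplasmic reticulum, differed by -0.16 and by 0.09 without wild-type sham 3. Of 16 ion channel genes 1, Kcnh2, was higher under 0.05. This subunit of the rapid delayed rectifier potassium channel was 734, 694 and 859 against 507, 524 and 681 in sham hearts (0.41), and differed by -0.66 in banded hearts.

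Most genes of energy metabolism lay near 0. In fatty acid uptake and oxidation the median was -0.01 over 26 genes and 1 was under 0.05. This was Pdk4, a kinase that shuts off pyruvate dehydrogenase, at 1189, 1671 and 997 in knockout sham and 2295, 4633 and 3343 in wild-type sham. The groups did not overlap and the difference was -1.38 (SE 0.42). Ucp3, a mitochondrial carrier often regulated with it, was 157, 289 and 160 against 221, 485 and 382, with overlap. None of 27 electron transport genes was under 0.05, and they ran from -0.14 to 0.16, with Sdhc at 0.16 and Uqcrc2 at 0.12. Glycolysis and glucose use had a median of 0.06 over 19 genes, with hexokinase Hk2 higher by 0.39 and under 0.05, and glycogen synthase Gys1 at 0.23.

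Stress, immune and growth lists held 0 to 2 members each under 0.05, where 5.5% of all genes were under 0.05. None of these members passed after adjustment. In the unfolded protein response list Manf, a secreted chaperone-like factor of the endoplasmic reticulum, was 322, 318 and 251 in knockout sham and 566, 394 and 459 in wild-type sham. It and Pdia4, a disulfide isomerase, were the 2 of 22 under 0.05, with differences of -0.64 and -0.40. Heat shock genes had a median of 0.02 and 0 of 13 under 0.05 (Hsp90aa1 -0.29, Hspa4l 0.14). Of 23 antioxidant genes Txnip, the thioredoxin inhibitor, was under 0.05 at -0.75, and Gsta3 was at -0.35. Interferon response genes had a median of -0.13 and 0 of 23 under 0.05 (Usp18 -0.30, Psmb8 -0.22). Of 24 inflammatory mediators Vcam1, an endothelial adhesion molecule, was under 0.05 and higher by 0.40, and the chemokine Cxcl12 was at -0.26. Of 26 angiogenesis and hypoxia genes Nos3, endothelial nitric oxide synthase, was lower (-0.33) and Pgf, placental growth factor, higher (0.70), both under 0.05. The groups overlapped for both genes. Pgf was dim, at 12.8, 47.4 and 45.2 in knockout sham and 14.3, 14.3 and 12.4 in wild-type sham, and differed by -0.72 in banded hearts. Of 23 cell cycle genes Ccnb2, a mitotic cyclin, was under 0.05 and lower, at 17.5, 27.8 and 22.0 against 47.6, 44.1 and 36.1, and Ccnd2 was at 0.40.

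Other marker lists had medians between -0.28 (mesothelium and epicardium, 8 of 9 below 0) and 0.11 (erythroid cells). Macrophage markers had 12 of 14 below 0, a median of -0.12 and 0 under 0.05. That median was 0.03 without wild-type sham 1, with 6 below 0 and 8 above, and -0.23 without wild-type sham 2. Neutrophil markers had 8 of 9 below 0 and a median of -0.08. The medians were -0.04 for lymphocytes, 0.05 for mast cells, -0.02 for adipocytes, -0.05 for skeletal muscle, -0.15 for lung, 0.04 for thymus and -0.05 for nerve and glia. The mean log2 level of the skeletal muscle list was 6.17 to 6.42 in knockout sham and 6.34 to 6.50 in wild-type sham.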

How the data were processed

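Total RNA from hearts was hybridised to mouse Affymetrix arrays after biotin labelling, per the labels' protocols. The authors deposited 1 linear intensity per probe set and array; their software and scaling were not given in the sources used here. With 2% trimmed at each end, the mean of every array was 150, so no scaling was added. Of 45101 probe sets, 64 were controls, 34945 had 1 gene in the platform annotation, 932 several and 9160 were not listed; 34741 matched RefSeq. Array data carry no depth, so the number of arrays limits precision.

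Values were taken as log2(value + 16). One limma model (version 3.58.1, R 4.3.3) with 4 group means was fitted to 12 arrays, with 8 residual degrees of freedom and eBayes with a variance trend; tests were two-sided, adjusted by Benjamini-Hochberg over the 34945 probe sets at 0.05. Differences are knockout minus wild type. A gene in a list is its probe set of highest mean. Other settings were pseudocounts of 1 and 64, level filters, other scalings, no trend, array weights, a fit without the arrays of the other operation, a block for the replicate number and each array left out.

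Named were probe sets that passed, the 10 of smallest p, the 2 members of smallest p in each pathway list, list members that passed, and Apln, Aplnr, Atp2a2, Myh6, Myh7, Acta1, Nppb and Nppa; other list members were named as examples after their values were seen. One gene that the rule names is not reported here. The comparison, members and lists were chosen with earlier results of these data known. On simulated data with 34945 probe sets, tested in 3 runs, false calls were 5.91% of calls.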

Additional observations from a re-analysis of the deposited data

How the results depend on the processing

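With 1 Prune2 probe set passing in sham hearts, the count was 0 with 1 probe set a gene (that probe set is then left out) and 0 with only the groups compared, 2 with the replicate block (Cd99l2 added) and 1 to 2 with each array left out, 2 without wild-type sham 1 (Hadhb 1442732_at added, -1.52, adjusted p = 0.0342). The 1875 at an unadjusted p under 0.05 became 1069 in the upper 60% by mean, 995 with 1 probe set a gene, where fewer are tested, and 1516 to 2481 with each array left out. The banded count of 0 became 1 with a pseudocount of 1, 2 in the upper 60%, 116 with array weights, 1 with the replicate block and 0 to 777 with each array left out. The interaction count of 0 became 1 with a pseudocount of 64, in the upper 60% and with array weights, and 0 to 169 with each array left out. Both highest counts came without the array labelled knockout banded 1. The count of sham calls with the same sign and an unadjusted p under 0.05 in banded hearts, 0, was 1 with the replicate block and 0 to 1 with each array left out. Apln was between -1.77 and -1.22 in all 22 alternatives (adjusted p 0.0781 to 0.775). Of 1131 alternatives of 52 named probe sets, 1116 kept direction and side of the threshold, and 13, none of which passed, turned: Acta1 was 0.05 with median scaling, and the others turned with 1 array left out, where Acta1 ran from -0.39 to 0.47, Nppb from -0.66 to 0.23, Aplnr from -0.64 to 0.52, Myh7 from -1.04 to 0.06, Psmb8 from -0.36 to 0.07, Nppa from -0.58 to 0.71, Atp2a2 from -0.41 to 0.09 and Myh6 from -0.38 to 0.12. The causes were not tested. Leaving out a banded array, dropping the trend, fitting only the sham arrays or adding the replicate block cannot change a sham difference. In those settings the direction was therefore fixed in advance. Only the Prune2 probe set passed in the main setting, so for the others keeping the side of the threshold meant staying short of it. Same-numbered sham arrays had residual correlations of 0.06, 0.15 and 0.04, so the numbers were not taken to pair the samples. Dim probe sets near the added 16 give compressed differences, and with 58.3 of 100 simulated 2-fold changes recovered, differences of that size can go undetected. That rate came from data with 100 probe sets changed at each size and can overstate recovery here.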

Other observations

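The 10092 probe sets that the annotation gives several genes or does not list were fitted apart, an analysis added after seeing the data. None of them passed in knockout sham against wild-type sham (limma), and 487 had an unadjusted p under 0.05.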
